A study of Mus musculus with 6 samples.

Results

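The interferon regulatory factors Irf1, Irf2, Irf3, Irf4, Irf5, Irf7, Irf8 and Irf9 are 8 of the 34245 genes measured by RNA-seq in lymphomas of mice that carry 1 functional copy of the DNA methyltransferase gene Dnmt3b. They were chosen by name, as the family members given for this report. The RNA came from 3 peripheral T-cell lymphomas (PTCL), taken independently from terminally sick animals, with the genotype Dnmt3b+/- on the FVB strain and lymph node as the tissue. The Dnmt3b allele is a conventional germline knockout, so the tumor cells and all the host cells of the node carried it. The tumors were bulk tissue with whatever host cells the node still held, and no control or wild-type library was used here. The values therefore describe 1 group of 3 tumors, numbered 1 to 3 as the authors number them, and no p-value can be given.

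Interferon regulatory factors are transcription factors that share a DNA-binding domain with a cluster of tryptophans and bind GAAA repeats in DNA. Irf3, Irf5 and Irf7 are activated by phosphorylation downstream of nucleic acid sensors and switch on interferon genes, Irf9 is part of the complex ISGF3 that carries the type I interferon signal to the nucleus, and Irf1 and Irf2 bind the same elements with largely opposing effects. Irf4 and Irf8 act mainly in lymphocytes and myeloid cells, where they bind DNA with partners such as PU.1 or Batf, and Irf4 is induced in T cells by their antigen receptor.

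Levels are given as FPKM, the unit the authors deposited, which divides the fragments of a gene by exon length and library depth. The exon lengths that fit these values merge all annotated transcripts, also those with retained introns. They came to 100% of the span of Irf7, 83.4% of Irf9, 66.2% of Irf3 and 6.87% of Irf2. A longer merged length lowers FPKM, so orders and ratios between genes depend on the annotation, while ratios between tumors do not. The depth behind these values was 30726570 reads for tumor 1, 18969988 for tumor 2 and 20770928 for tumor 3, and reads per gene were recovered from it. Intervals and limits from these reads cover counting error only. Of 10 T-cell markers, all 10 were above the limit of 3 reads in each tumor, with medians of 123, 114 and 172 FPKM in tumors 1, 2 and 3. Cd8b1, a chain of the CD8 co-receptor, was the most abundant of them, and the other 2 markers with the highest means were Cd8a and Trac. Trbc1, a constant segment of the T-cell receptor, had the largest ratio between tumors, with 98.2, 284 and 161 FPKM. Cd8a and Cd8b1 ran the other way and were lowest in tumor 2, with 259, 122 and 218 FPKM and 435, 166 and 443 FPKM. Of the 10 T-cell markers, 5 were highest in tumor 2 and 4 lowest there. Over all genes that averaged at least 1 FPKM, 33.7% were highest in tumor 2 and 38.3% lowest. Of the 10 markers, 3 differed at least 2-fold between tumors, 1 without tumor 1 and 0 without tumor 2.

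All 8 Irf genes were expressed in each tumor, with at least 29 reads per gene and tumor and means from 2.38 to 61.8 FPKM. A gene was called variable when its highest tumor had at least 2 times the FPKM of its lowest, and when its FPKM averaged at least 1. Irf4, Irf7 and Irf8 met this rule, 3 of 8 or 37.5%, where 34.4% of the 11197 genes tested did. Irf4 was called with its highest value in tumor 1, where 18.1% of all tested genes were called and highest. Irf7 and Irf8 were called with their highest value in tumor 2, against 12.3% of all tested genes, and 0 Irf genes were called and highest in tumor 3, against 3.97%. With all 3 tumors, the share of variable Irf genes was near that of all genes. The median ratio of highest to lowest tumor was 1.48 over the Irf genes and 1.68 over all tested genes. Without tumor 1 the same 3 Irf genes were called, where 15.8% of all tested genes were. Without tumor 2 only Irf7 was called, 12.5% against 17.6% of all genes, and without tumor 3 only Irf4 and Irf7 were, 25% against 26.2%. These shares over all genes are also those to set beside the counts of called genes in each list. Without a tumor the 2 sets differ somewhat. The list counts keep the genes that averaged at least 1 FPKM over all 3 tumors, while the shares are over genes that did so in the remaining tumors.

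**Figure D1:**
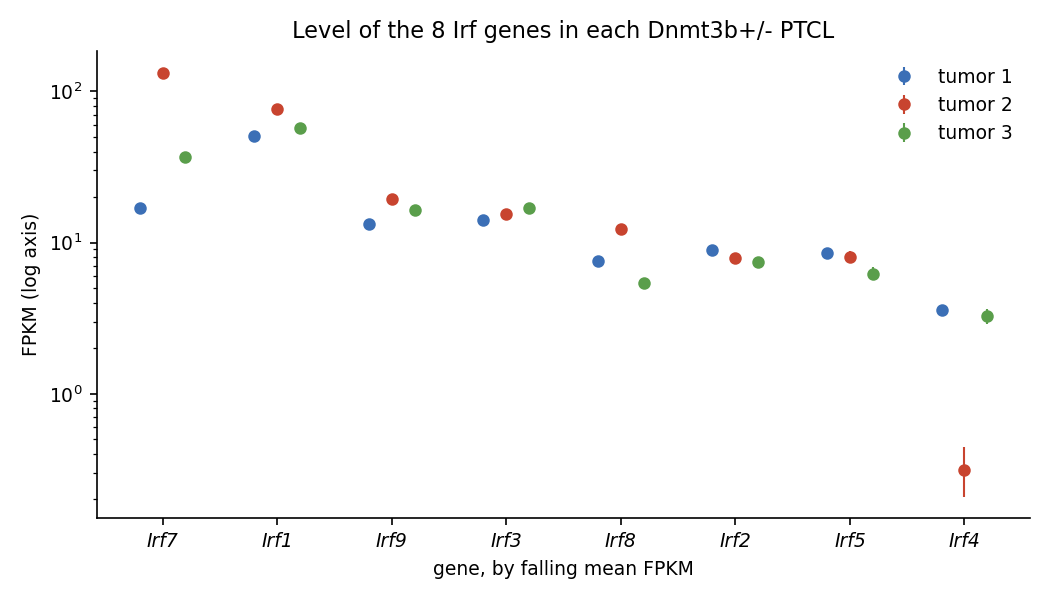
FPKM of the 8 Irf genes in each Dnmt3b+/- PTCL on a log axis, genes ordered by their mean. Points are single tumors and bars are 95% counting intervals, which are hidden by most points. Irf7 stood at 132 FPKM in tumor 2 and Irf4 at 0.312, the points farthest from those of the other tumors.

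By mean level the order was Irf7, Irf1, Irf9, Irf3, Irf8, Irf2, Irf5 and Irf4. Of the 7 pairs of neighbours in this order, the ranges of the 3 tumors overlapped for 4, which are Irf7 with Irf1, Irf9 with Irf3, Irf8 with Irf2 and Irf2 with Irf5. The ranges did not overlap between Irf1 and Irf9, between Irf3 and Irf8 or between Irf5 and Irf4. The place of Irf7 at the top rested on the scaling, since Irf1 came first with FPKM rescaled to a common sum, and on tumor 2, since Irf1 had the highest FPKM of the family in tumors 1 and 3, and without tumor 2 the mean of Irf7 was 26.8 FPKM, below that of Irf1. Irf4 was the lowest of the 8 in every tumor. Only 3.78% of the tested genes had a higher mean than Irf7 and 3.80% a higher mean than Irf1, against 79.3% for Irf4. The FPKM of the 8 genes summed to 123.2 in tumor 1, 272 in tumor 2 and 149 in tumor 3. Irf7 made up 13.6%, 48.5% and 24.6% of these sums. Without Irf7 the sums were 106, 139.8 and 113 FPKM, so that most of the difference in the family total was that of Irf7.

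**Figure D2:**
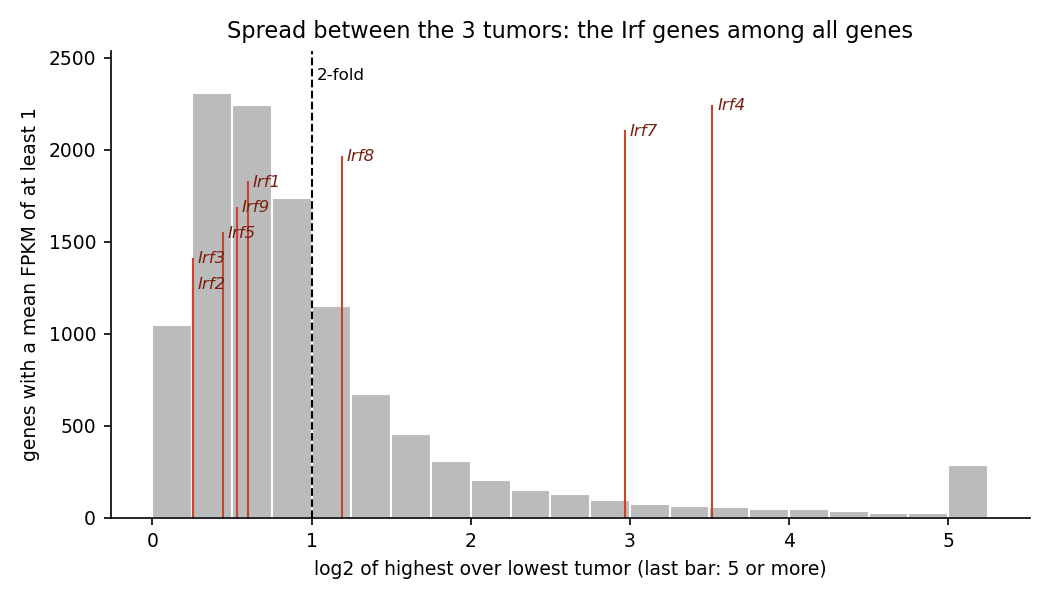
Number of genes by the log2 ratio of their highest to their lowest tumor, for the 11197 genes that average at least 1 FPKM, with the ratios of the 8 Irf genes as red lines whose height carries no value. The dashed line is the 2-fold threshold. Irf8 lay just past it at a ratio of 2.29, Irf7 and Irf4 far past it at 7.84 and 11.5, and the other 5 Irf genes before it.

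Irf7, the factor that amplifies type I interferon production, lies on the minus strand of mm10 at chr7:141262706-141266481 (ENSMUSG00000025498). Tumor 1 had 16.8 FPKM, tumor 2 had 132 and tumor 3 had 36.7, from 1950, 9436 and 2881 reads, with a mean of 61.8 ± 61.4 (SD, n = 3). Tumor 2 was high and tumor 1 low, and the 95% counting intervals of the 3 tumors were apart, with 129 to 134 FPKM in tumor 2. The ratio of tumor 2 to tumor 1 was 7.84, and 6.08% of the tested genes had a larger ratio between their highest and lowest tumor. Without tumor 2 the ratio was 2.19, and without tumor 1 it was 3.59. In a bulk tumor, fewer cells of a type and less RNA per cell cannot be told apart, which holds for every difference given here. The scaled values of the tumors carry a shift of their own, since the median tested gene stood at 0.12, -0.06 and -0.12 on the log2 scale relative to its mean over tumors 1, 2 and 3. On the same scale Irf7 stood at -1.88, 1.09 and -0.75, and its order of tumors was the same under both other scalings tried, median-of-ratios factors and FPKM rescaled to a common sum.

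Because Irf7 had the largest difference in FPKM between tumors of the family, the DNA at its start is shown. The RefSeq promoter of Irf7, 250 bases before to 50 bases after the start on GRCm38.p6, and the other RefSeq windows named here were searched on both strands for GAAANNGAA, the core of an interferon-stimulated response element, and for TTCNNNGAA, the core of an element bound by Stat dimers, which reads the same on both strands. Of 32851 promoter windows, 8.56% held GAAANNGAA and 8.30% TTCNNNGAA. The Irf7 window, on the minus strand at chr7:141266375-141266674, held neither and has no capitals.
Irf7 promoter: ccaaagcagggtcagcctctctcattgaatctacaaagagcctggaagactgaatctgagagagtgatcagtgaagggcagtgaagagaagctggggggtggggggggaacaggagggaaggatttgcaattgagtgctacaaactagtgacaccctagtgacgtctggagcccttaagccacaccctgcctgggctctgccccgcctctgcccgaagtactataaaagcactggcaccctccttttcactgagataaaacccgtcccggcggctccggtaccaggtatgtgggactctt
Within 1000 bases on either side of the start in the FPKM table, a range chosen after the windows had been searched, a longer core, GAAANNGAA followed by A, occurred at 2 places after the start of Irf7. The search covered 34232 gene starts, 23.7% of which held the longer core. Both places are given in the direction of the gene on the minus strand of GRCm38.p6, with the core in capitals. The core nearer the start, 372 bases after it at chr7:141266090-141266119, is on the opposite strand, so that its letters appear reversed and complemented, and it lies in an intron of all 3 coding transcripts there. The other, 637 bases after the start at chr7:141265825-141265854, lies in an exon of 8 of the 9 transcripts over it, in none of the coding sequences.
Irf7 after start, nearer: actgtttaggTTTCATTTTCctgagatgca
Irf7 after start, farther: tcacacttgtGAAACTGAAAttcctacctg
A match is a description of letters and not a site of binding. Among the 8 Irf genes only Irf2 and Irf7 had the longer core within this range.

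Irf3, the sensor-activated factor that is present before any stimulus, lies at chr7:44997648-45002848 on the plus strand (ENSMUSG00000003184). It had 14.1, 15.4 and 16.8 FPKM in tumors 1, 2 and 3, a mean of 15.4 ± 1.37 (SD, n = 3) and a ratio of highest to lowest tumor of 1.19. Of the tested genes 90.2% had a larger ratio. The ratio was 1.01 with FPKM rescaled to a common sum and 1.45 with median-of-ratios factors. The 3 values lay close together, with tumor 3 highest, and in this it differed from Irf7 on the same chromosome. The ratio of Irf7 to Irf3 in FPKM was 1.19, 8.56 and 2.18 in tumors 1, 2 and 3. In tumor 1 the pair was close in FPKM, while in tumor 2 Irf7 was far above Irf3.

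Irf5, which acts downstream of Toll-like receptors mainly in myeloid and B cells, lies at chr6:29526625-29541871 on the plus strand (ENSMUSG00000029771). Its FPKM was 8.47, 8.08 and 6.23 in tumors 1, 2 and 3, with a mean of 7.59 ± 1.19 (SD, n = 3) and a ratio of 1.36. The intervals of tumors 1 and 2 overlapped, at 7.88 to 9.10 and 7.34 to 8.86 FPKM, and tumor 3 was lowest. With median-of-ratios factors the order of tumors 1 and 2 was exchanged. Of 10 macrophage markers, 9 had the same order of tumors as Irf5, with tumor 1 highest and tumor 3 lowest, although their median ratio was 13.2. Irf2 had this order too, as did 20.5% of all tested genes. All 10 were called, 6 without tumor 1. Their FPKM summed to 442, 149 and 37.0 in tumors 1, 2 and 3, with Lyz2, C1qa and C1qb as the most abundant genes and 0 of 10 at or under the limit of 3 reads in every tumor. The part of macrophages in the level of Irf5 was not tested.

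The genes that activate Irf3, Irf5 and Irf7, 18 sensors, adaptors and kinases, were all above 3 reads in every tumor. Of these, 4 were called variable, 22.2% against 34.4% of all tested genes. Without tumor 1 there were 0 called, against 15.8% of all tested genes, and without tumor 2 there were 2, against 17.6%. The median FPKM of the 18 genes was 6.16, 7.88 and 6.32 in tumors 1, 2 and 3. Irak1, a kinase of the Toll-like receptor pathway, had the highest mean of the list, with 20.0, 43.2 and 35.9 FPKM. Tmem173, the adaptor STING of cytosolic DNA sensing, was not called, with 43.5, 25.1 and 29.97 FPKM. Tbk1, the kinase that phosphorylates Irf3, was not called either, at 18.3, 20.7 and 14.6 FPKM. Tlr7, a receptor for RNA that acts through Irf5 and Irf7, had the largest ratio of the list, 3.49, and was lowest in tumor 1, the tumor with the lowest Irf7. Its values were 1.51, 4.67 and 5.28 FPKM. Irak1, Ifih1 and 3 more of the 18 had the same order of tumors as Irf7, 27.8%, against 16.8% of all tested genes, Ifih1 being named after its values were seen.

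Irf9, the DNA-binding subunit of ISGF3, lies at chr14:55603571-55610030 on the plus strand (ENSMUSG00000002325). It had 13.4, 19.3 and 16.4 FPKM in tumors 1, 2 and 3, a mean of 16.4 ± 2.96 (SD, n = 3) and a ratio of 1.44. Irf9 was therefore not called, but tumors 2, 3 and 1 came in the same order as for Irf7 and Irf1, and this order of Irf9 was the same under both other scalings. Stat2, the subunit that binds Irf9, varied most in the Stat family, with 12.5, 31.3 and 8.11 FPKM. The ratio of Stat2 to Irf9 in FPKM was 0.939, 1.62 and 0.493, above 1 in tumor 2 only. It rests on merged exon lengths, which cover 83.4% of the span of Irf9. Of the 7 Stat genes 2 were called, Stat2 and Stat4, with 0 called without tumor 2 and 1 without tumor 3. Stat4 and Stat6, which were among the 3 with the highest means, had 21.1 and 24.3 FPKM on average.

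Of 18 target genes of ISGF3, 17 were found, and Mx2 was not found by name. In all 16 of them that averaged at least 1 FPKM, tumor 2 was highest, tumor 3 in the middle and tumor 1 lowest, the order of Irf7, Irf9 and Irf1. Ifi44, below that level with 0.823, 1.69 and 0.141 FPKM, was lowest in tumor 3. The order of the 16 was seen in 16.8% of all tested genes. Tumor 2 was highest for all 16 under each scaling, and with FPKM rescaled to a common sum 14 of the 16 kept tumor 1 lowest. The medians of the list were 8.36, 46.6 and 20.2 FPKM in tumors 1, 2 and 3, and its genes stood at a median of -1.43, 0.90 and -0.53 on the log2 scale relative to their means. Of the 16 genes 15 were called, 93.8%, and 9 without tumor 2. Bst2, the tetherin that holds budding virus on the cell surface, was the most abundant, with 53.4, 459 and 138 FPKM, and Isg15 and Mx1 had the next highest means. Rsad2, the antiviral enzyme viperin, had the largest ratio, 34.1, with 0.653, 22.3 and 1.90 FPKM. Irf7 is itself a known target of ISGF3, and its ratio of 7.84 compared with a median ratio of 4.83 over the list.

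**Figure D3:**
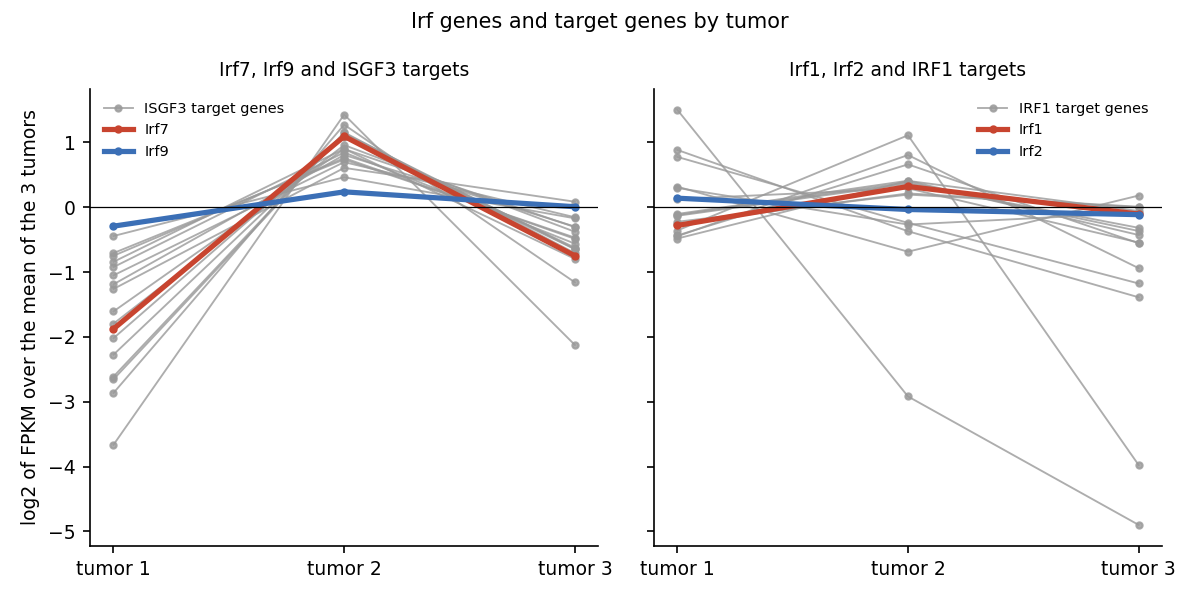
Log2 of FPKM over the mean of the 3 tumors, by tumor, for Irf7 and Irf9 with the 16 ISGF3 target genes (left) and for Irf1 and Irf2 with the 15 IRF1 target genes (right). Each line is a gene. On the left every line peaked in tumor 2, with Irf7 at 1.09 and Irf9 at 0.24, while on the right the lines of the targets ran in several directions.

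Irf1, the activator of antigen presentation genes and of the response to interferon gamma, lies at chr11:53770014-53778374 on the plus strand (ENSMUSG00000018899). Its level was 50.4 FPKM for tumor 1, 76.5 for tumor 2 and 57.0 for tumor 3, on the basis of 6162, 5771 and 4707 reads, with a mean of 61.3 ± 13.6 (SD, n = 3). Tumor 2 was highest and the others close together, at a ratio of 1.52 that 61.4% of the tested genes exceeded. Tumor 2 was highest under both other scalings, but with FPKM rescaled to a common sum tumor 3 and not tumor 1 was lowest. Irf2, which competes with Irf1 for the same elements, lies at chr8:46739732-46847458 on the plus strand (ENSMUSG00000031627). It had 8.94, 7.92 and 7.49 FPKM, a mean of 8.12 ± 0.742 (SD, n = 3) and a ratio of 1.19. The ratio was 1.41 with FPKM rescaled to a common sum and 1.02 with median-of-ratios factors, which changed the order of the tumors. Irf1 exceeded Irf2 5.64 times in tumor 1, 9.66 times in tumor 2 and 7.61 times in tumor 3.

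Irf1 and Irf2 are shown with their promoters because both windows held a core. The RefSeq window of Irf1 with the core, on the plus strand of GRCm38.p6 at chr11:53769764-53770063, has TTCNNNGAA in capitals, 90 bases before the start.
Irf1 promoter: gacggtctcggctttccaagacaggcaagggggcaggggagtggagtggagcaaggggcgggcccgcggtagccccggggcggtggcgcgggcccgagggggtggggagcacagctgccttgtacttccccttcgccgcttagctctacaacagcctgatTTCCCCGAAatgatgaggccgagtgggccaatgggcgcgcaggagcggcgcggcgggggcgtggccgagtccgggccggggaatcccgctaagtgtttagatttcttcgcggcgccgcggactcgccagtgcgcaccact
Irf2 was the only Irf gene with GAAANNGAA in its window, 241 bases before the start, and it held TTCNNNGAA 224 bases before it, on the plus strand. These stretches show each core in capitals.
Irf2 with GAAANNGAA: tggggaagtGAAAATGAAattgactttt
Irf2 with TTCNNNGAA: aaattgacttTTCCGAGAAatgatgaaag
The windows of Irf1 were rich in CpG, with 32 in the window shown and 43 in its other window, where the median of all windows was 7. The Irf2 window had 19 CpG and that of Irf7 had 7.

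Of 16 target genes of IRF1, 15 averaged at least 1 FPKM and 7 of these were called, 46.7%, with 4 called without tumor 2. The medians of the list were 42.3, 56.9 and 29.2 FPKM in tumors 1, 2 and 3. Tumor 2 was highest for 10 of the 15, as it was for Irf1 and for 33.7% of all tested genes. By the values as deposited 3 of the 15 had the whole order of Irf1, 20%, near the 16.8% of all tested genes. Another 7 had tumor 2 highest and tumor 3 lowest, the order of 16.9% of all tested genes. With FPKM rescaled to a common sum, where Irf1 itself had tumor 3 lowest, 8 shared its order, and with median-of-ratios factors 6 did. The 3 genes were Psmb8, Psmb9 and Psmb10, the inducible catalytic subunits of the immunoproteasome, of which the latter 2 were named after their values were seen. Psmb8 had 124, 166 and 145 FPKM. B2m, the light chain of MHC class I, had the highest mean and was highest in tumor 1 and lowest in tumor 2, unlike Irf1, with 2327, 1573 and 1781 FPKM. Tapbp, which helps load peptides onto MHC class I, was at 74.7, 105 and 65.7. Cxcl9, a chemokine induced by interferon gamma, ran another way, with 37.8, 1.77 and 0.447 FPKM and a ratio of 84.7. It had tumor 1 highest, as did Ifng.

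Irf4, the factor that T-cell receptor signals induce and that plasma cells require, lies at chr13:30749226-30766976 on the plus strand (ENSMUSG00000021356). Tumors 1 and 3 had 3.57 and 3.25 FPKM, from 538 and 331 reads, and tumor 2 had 0.312 FPKM from 29 reads, with a mean of 2.38 ± 1.80 (SD, n = 3). Tumor 2 was low, with a 95% counting interval of 0.209 to 0.448 FPKM, and tumors 1 and 3 overlapped at 3.28 to 3.89 and 2.91 to 3.62 FPKM. The ratio of tumor 1 to tumor 2 was 11.5, and 4.68% of the tested genes had a larger one. Without tumor 2 the ratio was 1.10, so the call rested on that tumor. With a pseudocount of 1 the ratio of Irf4 was 3.48, below the 7.45 of Irf7, so that Irf4 has the largest ratio of the family only without it. Tumor 2 was lowest under each scaling, while median-of-ratios factors put tumor 3 above tumor 1.

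Irf8, needed for the development of dendritic cells and monocytes and also expressed in B cells, lies at chr8:120736358-120756694 on the plus strand (ENSMUSG00000041515). Its tumors 1, 2 and 3 had 7.58, 12.3 and 5.38 FPKM, with 1644, 1645 and 788 reads and a mean of 8.42 ± 3.53 (SD, n = 3). Tumor 2 was highest and tumor 3 lowest under each scaling. The ratio was 2.29, which 25.9% of the tested genes exceeded, and it was 1.41 without tumor 2 and 1.62 without tumor 3, below the threshold. Irf4 and Irf8, closely related factors within the family, thus differed in opposite directions in tumor 2. The ratio of Irf8 to Irf4 was 2.12, 39.4 and 1.65 in tumors 1, 2 and 3.

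The promoters of Irf4 and Irf8 are shown as those of the pair that parted in tumor 2. The Irf8 window with a core, on the plus strand of GRCm38.p6 at chr8:120736108-120736407, held TTCNNNGAA 171 and 153 bases before the start, in capitals. The Irf4 window, on the plus strand at chr13:30748983-30749282, held neither core and has no capitals, which says only that these letters are not in it.
Irf8 promoter: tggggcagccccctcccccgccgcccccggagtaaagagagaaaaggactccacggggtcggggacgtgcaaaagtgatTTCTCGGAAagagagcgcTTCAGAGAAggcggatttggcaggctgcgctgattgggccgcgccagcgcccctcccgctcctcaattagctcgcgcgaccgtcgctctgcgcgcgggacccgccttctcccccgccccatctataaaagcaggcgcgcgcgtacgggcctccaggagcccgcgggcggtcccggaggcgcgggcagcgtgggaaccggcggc
Irf4 promoter: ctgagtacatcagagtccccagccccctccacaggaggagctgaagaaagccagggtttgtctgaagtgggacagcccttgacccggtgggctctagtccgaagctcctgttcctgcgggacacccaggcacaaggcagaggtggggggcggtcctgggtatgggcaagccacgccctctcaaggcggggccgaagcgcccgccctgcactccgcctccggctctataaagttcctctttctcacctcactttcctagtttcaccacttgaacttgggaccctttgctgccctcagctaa
The Irf8 window shown had 38 CpG and the Irf4 window 11, while the other Irf8 window, at chr8:120738389-120738688, had 8 CpG and neither core. Over all 8 Irf genes, RefSeq gave 11 windows, and 1 gene held GAAANNGAA and 3 held TTCNNNGAA. With 1000 bases on either side of the start, 6 of the 8 held TTCNNNGAA, where 46.0% of all starts did, and Irf4 was the only Irf gene with neither that core nor the longer core, the shorter GAAANNGAA not being searched in this range.

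Of 11 partners of Irf4 and Irf8 on DNA that averaged at least 1 FPKM, 4 were called, 36.4% against 34.4% of all tested genes. Without tumor 1 there was 1 called partner, where 15.8% of all tested genes were called. All 13 partners were above 3 reads in each tumor. Their median FPKM was 10.4, 6.51 and 10.8, lowest in tumor 2, but their sum was lowest in tumor 3, at 237, 197 and 181 FPKM, as was their median on the log2 scale relative to the means, at 0.18, -0.10 and -0.21. Ikzf1, the lymphoid factor Ikaros, had the highest mean, with 63.5, 52.1 and 52.4 FPKM, and Junb and Jund, partners in AP-1 dimers, had 34.5 and 31.3 FPKM on average. Etv6, an Ets family repressor, had the largest ratio, 4.55, and the same order of tumors as Irf4, with 8.19, 1.80 and 3.11 FPKM. In all 5 of the 11 partners had this order, 45.5%, where 30.2% of all tested genes did. The other 3 called partners, Jun, Spi1 and Spib, are named after their values were seen. Spib, an Ets factor of B cells, had 5.51, 1.80 and 8.19 FPKM, and Spi1, the myeloid and B-cell factor PU.1, had 5.87, 2.17 and 1.43. Neither had the order of Irf8.

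Markers of B cells were low in tumor 2 as Irf4 was. Of 8 markers, 8 were called, 2 without tumor 2, and 7 had tumor 2 lowest under each scaling. These 7 had tumor 3 highest, 6 of them also with FPKM rescaled to a common sum. The exception to both was Cd22, with 5.84, 36.5 and 13.9 FPKM. The FPKM of the 8 summed to 65.9 in tumor 1, 50.9 in tumor 2 and 123.4 in tumor 3, Cd79a was the most abundant, and 0 were at or under 3 reads in every tumor. Ms4a1 had the largest ratio, 13.3, with 0.400 FPKM in tumor 2. Of 5 plasma cell markers, 3 averaged at least 1 FPKM and all 3 were called. The 5 summed to 829, 189 and 209 FPKM, with Jchain at 814, 185 and 179. Mzb1 had 11.0, 2.62 and 25.8 FPKM. The part of B and plasma cells in the level of Irf4 was not tested.

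**Figure D4:**
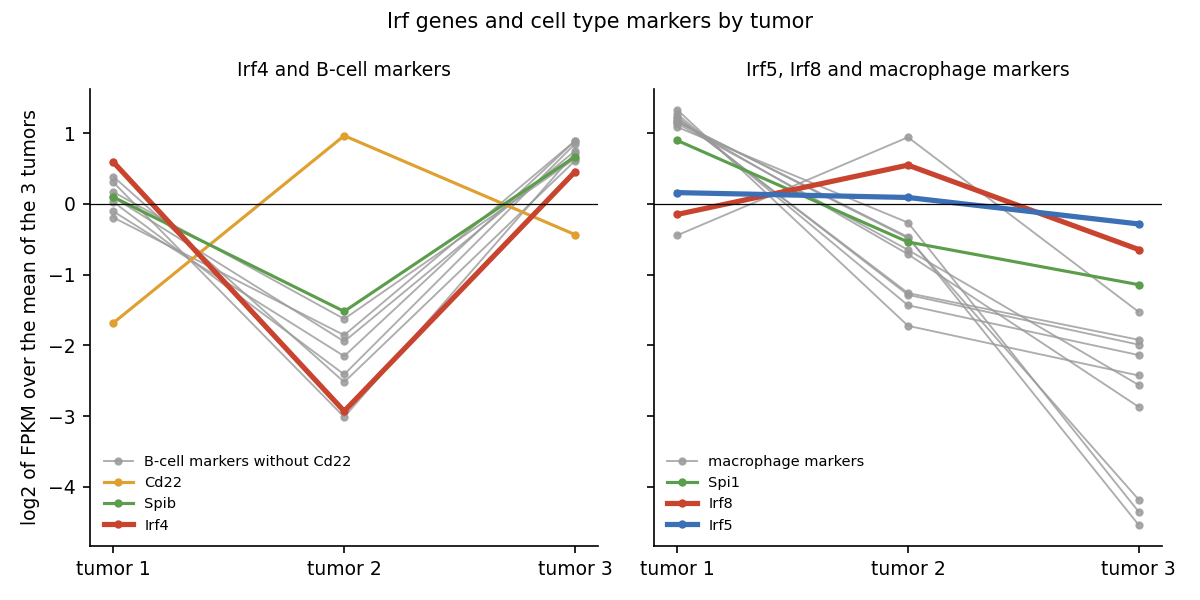
Log2 of FPKM over the mean of the 3 tumors, by tumor, for Irf4 with the 8 B-cell markers and Spib (left) and for Irf8 and Irf5 with the 10 macrophage markers and Spi1 (right). Each line is a gene. Irf4 stood at -2.93 in tumor 2, where 7 B-cell markers were also lowest, while Irf8 peaked there at 0.55.

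Markers of the cells that depend on Irf8 were set beside it. Of 6 conventional dendritic cell markers, 3 averaged at least 1 FPKM and all 3 were called, 1 without tumor 1 and 1 without tumor 3. The list summed to 8.67, 7.09 and 3.71 FPKM, with Itgax the most abundant, and its median was highest in tumor 1 but in tumor 2 with median-of-ratios factors. Clec9a, a receptor of cross-presenting dendritic cells, had the order of Irf8, with 1.27, 2.29 and 0.731 FPKM, and Xcr1 of the same cells had 2.29, 1.47 and 0.973. Cd68 was the only macrophage marker highest in tumor 2 and is named after its values were seen, with 19.6, 51.2 and 9.27 FPKM. All 6 pancreatic acinar markers had the order of tumors of Irf8, as did 16.9% of all tested genes. The acinar markers summed to 74.4, 374 and 0.438 FPKM with Ctrb1 the most abundant. With the exception of 1 of the 6, they were at or under 3 reads in tumor 3, where Irf8 still had 788 reads. The part of these cells and tissues in the levels of Irf7 and Irf8, both highest in tumor 2, was not tested.

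Plasmacytoid dendritic cells, known for high Irf7 and Irf8, had 5 markers, all above 3 reads in tumors 1 and 2, and 4 of them in tumor 3. Of the 5 markers, 3 averaged at least 1 FPKM and were called. The list had medians of 1.27, 1.32 and 0.655 FPKM, the order of Irf8. It summed to 8.25, 28.2 and 11.0 FPKM, and Pacsin1, the most abundant on average, had the order of Irf7 with 3.20, 9.21 and 8.95 FPKM. Siglech, a receptor on these cells, and Ccr9 were lowest in tumor 2, where Irf7 was highest, Siglech with 2.52, 0.187 and 0.655 FPKM. Cox6a2 was highest there, with 4, 17 and 0 reads. Klk1 had 1.27, 17.4 and 0.536 FPKM, the order of the acinar markers, and without it the list summed to 6.98, 10.9 and 10.4, of which Pacsin1 was the largest share. Of 8 neutrophil markers, Elane, Mpo and Ly6g were at or under 3 reads in every tumor. S100a8 and S100a9 had the order of Irf4, S100a9 with 22.6, 1.01 and 10.4 FPKM, and the list summed to 37.7, 1.54 and 16.2. The NK-cell markers, 3 genes, summed to 20.7, 45.4 and 48.5 FPKM carried by Eomes at 20.0, 39.5 and 45.0, while Ncr1 was highest in tumor 1 with 0.380, 0.205 and 0.125 FPKM. Klrb1c had the largest ratio of the list, 18.7, and the order of Irf7, with 0.308, 5.77 and 3.38 FPKM. The 2 tested were called, 0 without tumor 1 and 1 without tumor 3. The endothelial markers, also 3 genes, summed to 13.5, 12.7 and 5.08 FPKM, with Pecam1 called, though not without tumor 3.

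Among the ligands that act upstream of the Irf genes, those of type I and type III were scarce. Of 21 interferon genes, 15 were at or under 3 reads in every tumor, among them Ifnb1, Ifne, Ifnk, Ifnz and Ifnl3. Ifng, the type II interferon made by T and NK cells, was the only ligand that averaged at least 1 FPKM, and was called with 8.49, 1.10 and 1.12 FPKM from 338, 27 and 30 reads. Its high value was in tumor 1, as that of Cxcl9 was, and without tumor 1 it was not called. Ifna4 had 13 reads in tumor 2, Ifna2 had 9 and Ifna1 had 8, each with 0 reads in tumors 1 and 3, which allows up to 3. Ifnl2 had 5 reads in tumor 2, and Ifnab 5 in tumor 1, with 0 in the others. Ifna2, Ifnl2 and Ifnab are named after their values were seen. The Ifna genes are close copies of each other, so a read may belong to another copy. The authors counted only reads of high mapping quality, a filter that can drop reads matching several copies, so these counts may be too low. These few reads were in the tumor with the highest Irf7, apart from those of Ifnab.

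Except for Ifnlr1, the receptors and kinases of the interferon pathway had higher means than the type I and type III ligands. Ifnlr1, named after its values were seen, had 4, 3 and 0 reads. Of 9 genes, 8 averaged at least 1 FPKM, and 4 of these were called, with 2 called without tumor 1 and 1 without tumor 2. Ifngr1, the ligand-binding chain of the interferon gamma receptor, had the order of Irf1, with 64.1, 182 and 72.3 FPKM. Ifngr2, its other chain, had the largest ratio, 5.28, and tumor 1 highest, with 5.54, 1.05 and 1.09. Jak1, the kinase shared by the receptors, had 64.3, 117 and 128 FPKM, and Ifnar2 of the type I receptor had 19.1, 42.1 and 25.2. Of 5 inhibitors of the pathway 4 were called, and 3 with any 1 of the tumors left out. Usp18, an ISG15 protease that also dampens the type I receptor, had the order of Irf7 and a ratio of 11.6, with 7.05, 81.5 and 30.4 FPKM. Socs3, with a mean of 54.0 FPKM, had 14.3 in tumor 2 and was lowest there, as Irf4 was, and the phosphatase Ptpn6 had 65.0, 187 and 125.

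Genes induced by the T-cell receptor, as Irf4 is, were compared with it. Of 8 such genes, 4 averaged at least 1 FPKM and 3 of these were called, with 1 called without tumor 2. Il2ra, the alpha chain of the interleukin 2 receptor, had 43.2, 9.98 and 1.96 FPKM and a ratio of 22.1, with tumor 3 low where Irf4 was not. Myc had 55.2, 38.0 and 30.4 FPKM, and Nr4a1 had 2.67, 3.52 and 1.58, so that none of these 3 had the order of Irf4. Of the 8 genes, 3 had that order, Egr1, Egr2 and Egr3, named after their values were seen, with Egr1 at 2.31, 1.07 and 1.39 FPKM. Of the 4 that averaged at least 1 FPKM only Egr1 had it, as did 30.2% of all tested genes. With median-of-ratios factors, where Irf4 was highest in tumor 3, 0 of the 8 shared its order. The binding proteins of Irf2, Irf2bp1, Irf2bp2 and Irf2bpl, were each highest in tumor 2, as Irf1 was and Irf2 was not, with ratios of 1.90, 1.99 and 1.95. These calls changed with the scaling, since Irf2bp1 and Irf2bpl reached 2.14 and 2.20 with median-of-ratios factors and Irf2bp2 reached 2.15 with FPKM rescaled to a common sum. Of the 5 NF-kB subunits, which act beside the Irf factors on interferon genes, 0 were called. Their median ratio was 1.29, against 1.68 over all tested genes. Rela, Nfkb2 and Nfkb1 had the highest means, at 21.9, 13.0 and 10.1 FPKM, and Relb the largest ratio, 1.72.

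**Figure D5:**
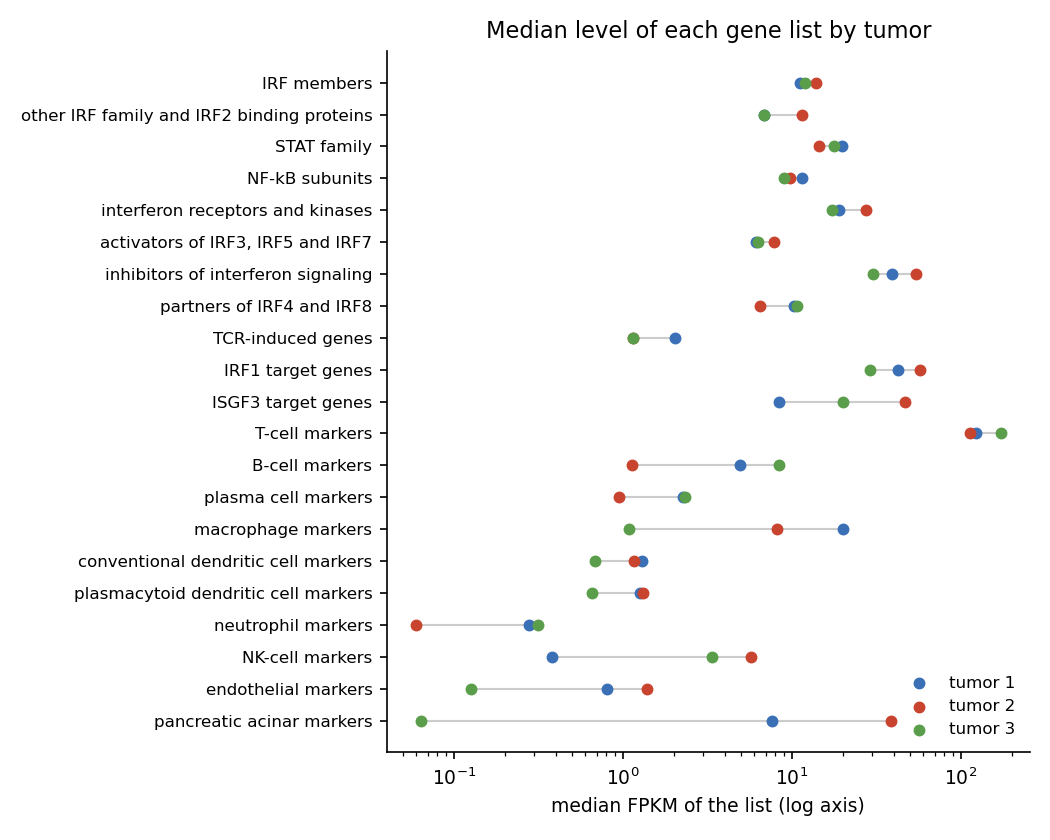
Median FPKM of each gene list in each tumor on a log axis, without the interferon ligands, most of which had no reads. Points are tumors and grey lines join the lowest and highest. The medians of the Irf genes lay between 11.1 and 13.8 FPKM, close together beside those of the ISGF3 targets and of several cell type markers.

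In the plot of list medians, the 8 Irf genes had 11.1, 13.8 and 12.0 FPKM in tumors 1, 2 and 3, highest in tumor 2 under each scaling. The lists whose highest tumor changed with the scaling were the partners of Irf4 and Irf8, the Stat family, and the plasma cell, neutrophil and both dendritic cell lists.

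The Irf genes were also set beside their neighbours on the chromosome. They lie on 6 chromosomes, with Irf3 and Irf7 both on chromosome 7 and Irf2 and Irf8 both on chromosome 8. Irf7 shares 45 bases with Phrf1 on the opposite strand, which had 8.33, 9.21 and 7.04 FPKM, also highest in tumor 2 but with a ratio of 1.31 against 7.84 for Irf7. Rassf7 and Cdhr5, the nearest genes that do not overlap it, had means of 1.63 and 0.0269 FPKM. Around Irf4, Dusp22 and AL645745.1 were both low, and Dusp22 had 142, 18 and 59 reads, the order of Irf4. Irf8 lies within the long model Gm20388 on the same strand, at 16.1, 19.4 and 17.5 FPKM. Irf1 contains Gm17334 on the opposite strand, with 16.0, 16.7 and 13.5 FPKM, highest in tumor 2 as Irf1 was. Irf3 shares 1065 bases with Bcl2l12, Irf5 1045 with Tnpo3 and Irf9 123 with Rnf31, and Irf2 contains Gm45479, Gm31172 and Gm45481 with at most 5 reads each. Reads in bases shared with genes on the opposite strand cannot be told apart, as the values carry no information on strand. Gm20388 and Rnf31 lie on the strand of their Irf gene, where strand could not separate the reads. Rnf31, on the strand of Irf9, also had its order of tumors, with 8.70, 13.6 and 10.1 FPKM. On the other side of Rnf31, Psme2 of the proteasome activator was abundant, at 116, 109 and 145 FPKM, with tumor 3 highest where Irf9 had tumor 2.

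The other nearest genes were mostly low. Il5 and Gm12216 beside Irf1 had means of 0.0560 and 5.61 FPKM, and Gm16675 and 1700011L03Rik beside Irf2 had 2.43 and 0.0855. For Irf3 they were Gm15545 and Scaf1, at 3.44 and 11.1 FPKM, and for Irf5 Gm26627 and Gm43029, at 0.0269 and 0.985. Those of Irf8, Gm33142 and Gm26878, had at most 1 read in each tumor, and Rec8 after Irf9 had a mean of 0.0605 FPKM.

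Likeness of pattern was measured as the distance between log2(FPKM + 0.1) values centred on their mean over the 3 tumors, a small distance meaning a like pattern, among 11191 genes. With 3 tumors many genes come close by any pattern. For Irf4 the nearest were Bivm, Gm14325 and Gm15675, at distances of 0.0103, 0.0347 and 0.103, and Bivm had 2.48, 0.188 and 2.27 FPKM. Irf7 had no gene as close, the nearest being Arhgap39, Prrt1 and Stard10 at 0.122, 0.123 and 0.133. The genes nearest to Irf1 were Mrps26, Rusc1 and Mst1, and those nearest to Irf9 were Gpi1, Gm12868 and Egfl8. For Irf8 they were 9330160F10Rik, Gpaa1 and 1700017B05Rik, for Irf2 Samd4b, Kdsr and Gm43118, for Irf3 Rhof, Bach1 and Atf7ip, and for Irf5 Fbrs, Pdcd5 and 6030458C11Rik. The distances of these 6 Irf genes to their nearest gene lay between 0.00197 and 0.0109. Among the Irf genes themselves, Irf1 and Irf9 were closest at 0.140, followed by Irf2 and Irf5 at 0.208, and Irf4 and Irf7 were farthest apart at 4.57. With a pseudocount of 1 in place of 0.1, 6 of the 24 nearest genes were still among them.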

How the data were processed

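RNA-seq was measured in 3 Dnmt3b+/- PTCL. The authors trimmed the paired-end reads, aligned them to mm10 with STAR, counted those of high mapping quality per gene with SeqMonk and deposited FPKM, scaled to exon length and library depth. No column of values was left out, and the bisulfite libraries were not analysed here. Unread genes carry a value equal to 0.9 read, which gave each depth, and reads were recovered with merged exon lengths from GENCODE M21, known for 99.6% of the genes. Of the values 93.4%, 93.4% and 93.6% in tumors 1, 2 and 3 lay within 0.05 of a whole read. The limit that a count of 0 allows was taken as 3 reads, and intervals are exact 95% Poisson intervals. Where a symbol was repeated, the gene with the highest mean was used, and 26 symbols turned into dates were restored. Background shares with all 3 tumors are over the 11197 genes that averaged at least 1 FPKM. Those without tumors 1, 2 and 3 are over 10841, 11097 and 11463 genes. Promoter windows are from RefSeq on GRCm38.p6, found for 8 of 8 genes.

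Named genes are the 8 Irf genes, the 3 genes with the highest mean and the 1 with the largest ratio of each list, markers at or under 3 reads, the 3 genes nearest in pattern and the neighbours on the chromosome. Genes named otherwise are marked in the text, and some list genes are not reported here. The members and the 22 lists of 195 genes were chosen with earlier results of these data known. Alternatives were both other scalings, other folds of 1.5 and 3, other filters, pseudocounts of 1 and each tumor left out. The search around the gene starts, the scaling of lists and of list genes, the list counts without each tumor and the sum without Klk1 were chosen after seeing the data. The steps were tested on simulated data. Tables were handled in pandas 2.3.3 and NumPy 2.4.6 under Python 3.11, intervals came from SciPy 1.17.1 and plots from matplotlib 3.10.9.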

Additional observations from a re-analysis of the deposited data

How the results depend on the processing

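No paired analysis was possible because RNA-seq values were used of 1 group only, so that no other group could be paired with its tumors. Counts, levels and ratios have no sign to reverse, but orders do. Irf1 came before Irf7 by mean with FPKM rescaled to a common sum and without tumor 2, where Irf3 also passed Irf9 and Irf8 fell below Irf2 and Irf5. The order of the tumors was kept by 3 of the 8 Irf genes under both other scalings. The number of variable Irf genes, 3, ran from 1 to 3 with a tumor left out, since without tumor 2 only Irf7 was called. The share over all genes moved as well, to 15.8%, 17.6% and 26.2% without tumors 1, 2 and 3. The number called and highest in tumor 1, which was 1, ran from 0 to 1, that for tumor 2, which was 2, from 1 to 2, and that for tumor 3, which was 0, became 1 without tumor 1 or tumor 2, as the highest of the remaining tumors. With median-of-ratios factors it was 0 for tumor 1 and 1 for tumor 3, because Irf4 was then highest in tumor 3. The other settings kept the number of variable Irf genes within 1.5 times, and 4 or 5 neighbours in the order overlapped. The counts by highest tumor were not run with other folds, filters or pseudocounts. Irf8 was not called with a fold of 3, and Irf4 was not called with a mean of at least 5 FPKM. The means changed with rescaling by construction, and the mean of Irf7 was 26.8 FPKM without tumor 2. With a tumor left out, the count of variable genes of a list changed by more than 1.5 times in 21 of 66 cases. The highest tumor of a list was the same for 18 of 22 lists with FPKM rescaled and for 20 with median-of-ratios factors, which have log2 values of 0.15, -0.02 and -0.13. The alternative on the identity of the proteins was not run, as no protein sequences were used here. Among the Irf genes depth limits Irf4 in tumor 2 most, with 29 reads, and it also limits the interferon ligands.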
